A study of Mus musculus with 6 samples.

Results

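Imprinted genes are expressed mainly from the chromosome copy inherited from 1 parent. The genes described here were chosen by name as imprinted genes linked to the resting state of stem cells. Of 10 names, 8 matched a line of the deposited table of 22381 genes: Gnas, Grb10, Igf2r, Mest, Ndn, Dlk1, Igf2 and Peg3. The expression of H19 and Meg3 was not analysed here. RNA was sequenced from LSK cells, bone marrow cells without mature lineage markers that carry Sca-1 and c-Kit and include the blood-forming stem cells. By the labels, 3 samples came from Tgif1-/- mice and 3 from wild-type mice (Tgif1+/+), all C57BL/6 and 8 to 12 weeks old. Tgif1 encodes a homeodomain repressor that limits TGF-beta and retinoic acid responses. The labels name no deleted exon, no driver that limits the deletion to a cell type and no separate animal for each sample, so the spread behind the authors' p-values may be technical.

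Imprinted genes sit in clusters in which DNA methylation set in the egg or sperm decides which parental copy is transcribed. Many of them control growth. In blood stem cells, silencing of the maternal Igf2 copy is known to limit insulin-like growth factor signalling and to help keep the cells out of cycle. Igf2 encodes the ligand, Igf2r the receptor that removes it, and Grb10 an adaptor that dampens signalling from the insulin and IGF1 receptors.

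The table holds 1 FPKM value for each group, the number of fragments scaled to transcript length and to the mapped total, with no value for a single sample and an unknown sequencing depth. Overlap between samples of the groups could therefore not be read. Each pair of values below has the group labelled Tgif1-/- ahead of the wild-type group, and each log2 ratio is Tgif1-/- over wild type. The implied standard error is the log2 ratio divided by the deposited test statistic, and the 95% intervals are built on it. Both describe the authors' Cuffdiff model and not a spread measured between samples. A gene was called where the authors tested it and gave a q (a p adjusted over all tested genes) at or under 0.05. Tgif1 itself stood at 88.6 and 71.5 FPKM with a failed test, so the targeted gene does not bear out the label, and every direction below is between groups as labelled. In bulk RNA, fewer cells expressing a gene and less RNA per cell cannot be told apart.

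Igf2r had the largest ratio between groups among the 8 genes, at 3.53 FPKM with the label Tgif1-/- and 7.85 FPKM in wild type, but it was not called. The ratios of the other seven genes were closer to 1, and none of the 5 genes that the authors tested was called by Cuffdiff. Over all 10730 tested genes, 0.662% were called, 0.289% higher and 0.373% lower. At an unadjusted p under 0.05, 1 of the 5 passed (Igf2r, lower), against 5.41% of all tested genes, 1.85% higher and 3.55% lower. Of the other three, Gnas and Grb10 had a failed test and Peg3 had too few reads to be tested.

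The sequences before the start sites of Igf2r, the gene with the largest ratio between groups, of its ligand gene Igf2 and of Mest are shown as examples of windows that hold letters searched for. Each is the 250 bases before a RefSeq start site on GRCm38.p6, read 5′ to 3′ on the gene's strand, with matches in capitals. The Igf2r window is chr17:12769707-12769956 (minus strand), that of the most upstream Igf2 start is chr7:142666817-142667066 (minus strand), and the Mest window is chr6:30737800-30738049 (plus strand).
Igf2r: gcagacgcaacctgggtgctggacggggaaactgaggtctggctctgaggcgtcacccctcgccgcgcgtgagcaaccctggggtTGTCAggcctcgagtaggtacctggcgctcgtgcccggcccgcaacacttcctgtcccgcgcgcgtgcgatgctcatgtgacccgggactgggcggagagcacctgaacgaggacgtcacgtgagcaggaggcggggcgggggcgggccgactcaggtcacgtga
Igf2: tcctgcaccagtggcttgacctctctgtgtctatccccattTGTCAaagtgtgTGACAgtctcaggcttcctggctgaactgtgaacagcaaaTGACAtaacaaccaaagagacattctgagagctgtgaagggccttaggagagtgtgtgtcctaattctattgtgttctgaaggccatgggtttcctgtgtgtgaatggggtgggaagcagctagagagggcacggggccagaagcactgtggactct
Mest: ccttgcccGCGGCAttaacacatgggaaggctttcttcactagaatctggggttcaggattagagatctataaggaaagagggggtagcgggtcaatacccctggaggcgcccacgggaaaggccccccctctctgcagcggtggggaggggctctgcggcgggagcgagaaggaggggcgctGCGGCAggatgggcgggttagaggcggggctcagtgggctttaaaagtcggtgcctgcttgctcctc
Capitals in Igf2r and Igf2 mark TGTCA, the core letters of the TGIF binding motif, or the same letters on the other strand. Capitals in Mest mark TGCCGC, the letters bound by ZFP57 when methylated, which lie there on the other strand. Igf2r held TGTCA at 1 place in its 1 window. The Igf2 window shown, 1 of 4, held it at 3 places, and the other Igf2 windows did not hold it. The Mest window shown, 1 of 3, held TGCCGC at 2 places, and the most upstream Mest window did not hold it. RefSeq windows matched 9 of the 10 names by symbol (Meg3 among them), with 19 windows in all. The Peg3 window also held TGTCA, at 2 places, and 1 of the 2 Meg3 windows held TGTCA and TGCCGC at 1 place each. These are not printed, since Peg3 had too few reads for a test and no expression value is given for Meg3. TGTCA was in 4 of these windows (21.1%), against 40% of 32851 mouse windows of the same length. By name, 4 of the 9 held it in a window. Several windows belong to the same gene and some of these overlap, so they are not independent. The longer TGIF letters CTGTCAA, which contain TGTCA, were in 0 of the 19 windows, against 2.95% of all windows. TGCCGC was in 3 of the 19 windows (15.8%), against 8.68% of all windows, and 2 of these 3 belong to overlapping Mest start sites. The Igf2r window held 27 CpG pairs and that of the Igf2 start shown held 1, where the median window held 6. The other Igf2 windows held 6, 10 and 22. A match is a run of letters and not a measured binding site.

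The 8 genes spanned a wide range of levels, which FPKM allows to be compared between genes because it is scaled to length. In wild-type cells Gnas was at 799 FPKM, Grb10 at 12.8, Igf2r at 7.85, Mest at 2.62, Ndn at 1.40, Dlk1 at 0.873, Igf2 at 0.365 and Peg3 at 0.0526 FPKM. The group labelled Tgif1-/- had the same order. Gnas lay at percentile 99.2 of all lines in the table by mean level, Igf2r at percentile 57.6 and Peg3 at percentile 28.5. With no spread between samples, neighbours in this order could not be tested against each other.

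**Figure D1:**
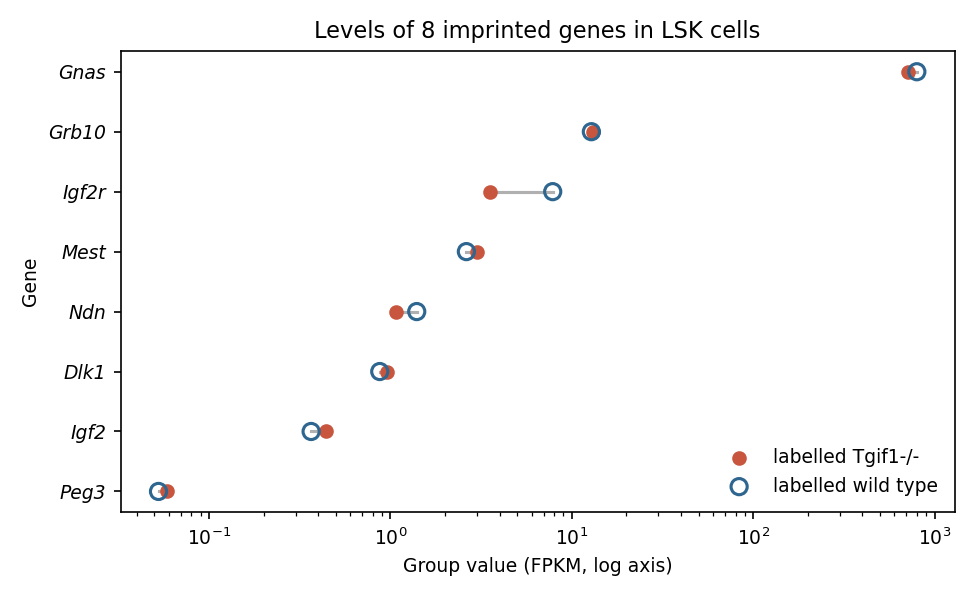
Group value in FPKM on a log axis for the 8 imprinted genes, 1 filled point for the group labelled Tgif1-/- and 1 open point for the wild-type group. The points nearly coincide for Grb10 (13.1 and 12.8 FPKM) and are farthest apart on this log axis for Igf2r (3.53 and 7.85 FPKM).

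Igf2r (ENSMUSG00000023830, chromosome 17, positions 12875272 to 12962530 in the table) encodes the cation-independent mannose 6-phosphate receptor. This receptor takes up IGF2 for breakdown, sorts enzymes to lysosomes and binds latent TGF-beta, and in mice it is expressed from the maternal copy. Its level was 2.22-fold lower in the group labelled Tgif1-/-, with an interval of 1.25 to 3.93. The log2 ratio was -1.15 (implied standard error 0.42), p was 0.00630 and q was 0.356 in the authors' deposited table. By p it stood at place 190 of the 10730 tested genes. Among 2646 tested genes within 2-fold of its mean level, 16 (0.605%), Igf2r included, had a log2 ratio as low or lower. In either direction, 29 of them, Igf2r included, had a log2 ratio as far from 0. The median implied standard error of these 2646 genes was 0.30, smaller than that of Igf2r.

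With its implied error, Igf2r would have needed a difference of 2.86-fold to be called, since the called gene with the largest p had a p of 0.000318. Its antisense transcript Airn overlaps it, and strand is not stated, so reads of both cannot be told apart. Igf2r lies on the same chromosome as Tgif1, with 58.2 Mb between them in the table.

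Igf2 (ENSMUSG00000048583, chromosome 7, positions 149836673 to 149852721) encodes the growth factor and is expressed from the paternal copy in most tissues. It was low in both groups, at 0.441 and 0.365 FPKM. The log2 ratio was 0.27 (implied standard error 0.65), with p = 0.680 and q = 1.00 in the authors' deposited table. The interval ran from 0.496-fold to 2.93-fold, and a call in either direction would have needed 5.11-fold.

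Grb10 (ENSMUSG00000020176, chromosome 11, positions 11830511 to 11938686), the adaptor named above, is expressed from the maternal copy in most tissues. It stood at 13.1 and 12.8 FPKM, a ratio of 1.03. The authors' test of this gene failed, so no error goes with these values. For comparison, the ratio of the same 2 groups was 1.21 for Igf2 and 0.450 for Igf2r.

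Gnas (ENSMUSG00000027523, chromosome 2, positions 174109821 to 174172245) encodes the stimulatory G protein alpha subunit, which couples many receptors to cyclic AMP. Several overlapping transcripts with different parental origin start in this locus, and a single value for the gene does not separate them. Its values were 716 and 799 FPKM, a log2 ratio of -0.16 with no error, since its test also failed. The line AF085738, named here because it shares the positions of Gnas, stood at 56.2 and 63.2 FPKM, also with a failed test. Tests failed for 14.0% of all lines and for 24.2% of the 12452 lines that reached 1 FPKM in a group.

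Mest (ENSMUSG00000051855, chromosome 6, positions 30673547 to 30846794) is a paternally expressed gene for a protein of the alpha/beta hydrolase fold. It had the narrowest interval of the 5 tested genes. Its values were 3.01 and 2.62 FPKM, and the log2 ratio was 0.20 (implied standard error 0.25), with p = 0.425 and q = 1.00 in the authors' deposited table. The interval ran from 0.820-fold to 1.60-fold. The implied standard error was below the median of tested genes at a like level, 0.37. With the error raised to that median, the unadjusted p recomputed from the authors' deposited table was 0.598. The table gives Mest the same positions as its neighbour Copg2, a coat protein subunit gene at 61.3 and 68.3 FPKM with a failed test, so how reads were divided between the 2 genes cannot be told from the table.

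Ndn (ENSMUSG00000033585, chromosome 7, positions 69493163 to 69494814) encodes necdin, a paternally expressed growth suppressor that binds E2F1 and p53 and is known to restrain division of blood stem cells. It stood at 1.07 and 1.40 FPKM. The log2 ratio was -0.38 (implied standard error 0.54), with p = 0.479 and q = 1.00 in the authors' deposited table, and a call would have needed 3.88-fold. Dlk1 (ENSMUSG00000040856, chromosome 12, positions 110691033 to 110701546) encodes a paternally expressed membrane protein related to Notch ligands. It stood at 0.957 and 0.873 FPKM, a log2 ratio of 0.13 (implied standard error 0.76), with p = 0.861 in the authors' deposited table. Its interval, from 0.393-fold to 3.06-fold, was the widest of the 5 tested genes.

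Peg3 (ENSMUSG00000002265, chromosome 7, positions 6656603 to 6683132), a paternally expressed zinc finger gene, was close to 0 in both groups, at 0.0589 and 0.0526 FPKM. The deposited status marks it as having too few reads, and no difference could be read from it.

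**Figure D2:**
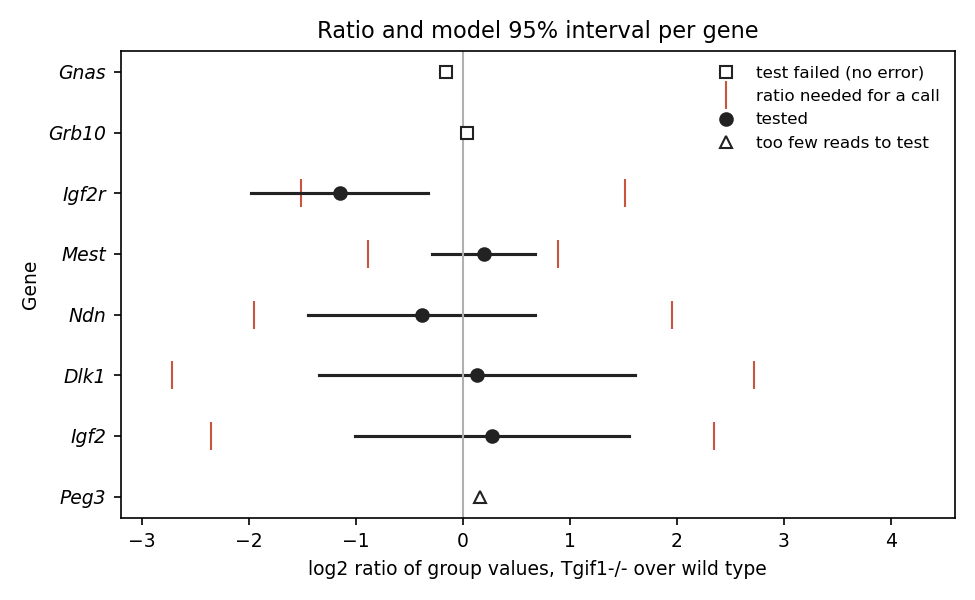
The log2 ratio of group values, Tgif1-/- over wild type, for the 8 genes. Horizontal bars are 95% intervals of the authors' model for the 5 tested genes, red ticks mark the ratio each would have needed for a call, and open symbols have no usable test. The Igf2r interval (-1.98 to -0.33) lies below 0 but its point (-1.15) does not reach the tick at 1.52 below 0, and the other four intervals cross 0.

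By direction, 3 of the 8 genes had the lower value in the group labelled Tgif1-/- (Igf2r, Ndn and Gnas) and 5 had the higher value. The 5 tested genes had a median log2 ratio of 0.13, beside -0.03 over all tested genes with values above 0, of which 57.4% were lower. Over all 8 genes the median was 0.08, and it was -0.16 over the 5 genes that reached 1 FPKM in a group, so its sign depends on which genes enter. The ratios themselves kept their signs with pseudocounts of 0.1 and 1 FPKM and with centring on the median of tested genes.

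Other imprinted genes of the mouse, from lists of maternally and paternally expressed genes, gave 48 matched names, of which 22 were tested, 10 failed and 16 had too few reads. None of the 22 was called by Cuffdiff, with 11 higher and 11 lower. An unadjusted p under 0.05 was reached by 3 (13.6%, beside 5.41% of all tested genes). Slc22a3, an organic cation transporter gene, was at 66.4 and 49.6 FPKM (in the authors' deposited table p = 0.0327). Inpp5f, an inositol phosphatase gene, was at 15.3 and 19.1 FPKM (p = 0.0234), and Snrpn, a splicing protein gene, was at 0.0965 and 0.377 FPKM (in the authors' deposited table p = 0.0292). An error floor raised the implied errors to at least the median of tested genes at a like level. With it the unadjusted p, recomputed from the authors' deposited table, was 0.146 for Inpp5f. It stayed at 0.0327 for Slc22a3 and 0.0292 for Snrpn.

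Of these 22 tested genes, 17 differed by less than 1.5-fold, and the median log2 ratio was -0.01. The lists give a parental origin that may hold in some tissues only, and FPKM values do not separate the parental copies. Whether these genes were imprinted in LSK cells was not tested. On the list of maternally expressed genes Cd81, a tetraspanin, was the highest at 491 and 499 FPKM. It was followed by the tetraspanin Tspan32 at 106 and 100 FPKM. Commd1 was at 92.7 and 83.5 FPKM and the signal peptide peptidase gene H13 at 87.8 and 89.6 FPKM, both with failed tests. Levels on the list of paternally expressed genes reached at most 19.1 FPKM, that of Inpp5f in wild type. Sgce, a sarcoglycan gene, was at 11.3 and 11.8 FPKM, Blcap at 10.5 and 11.9, Impact at 8.97 and 8.77 and Zrsr1 at 4.63 and 4.68 FPKM (failed test). Mcts2 was at 11.1 FPKM in wild type, with a log2 ratio of -0.15 and a failed test. Commd1 and Zrsr1, H13 and Mcts2, and Blcap and Nnat are each listed at the positions of the other. Commd1 and Zrsr1 share theirs with another line as well. The division of reads within these sets is therefore uncertain. Sfmbt2, a Polycomb-type gene, was at 3.90 and 2.41 FPKM (p = 0.0744), and Asb4 at 0.500 and 0.241 FPKM (in the authors' deposited table p = 0.127).

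**Figure D3:**
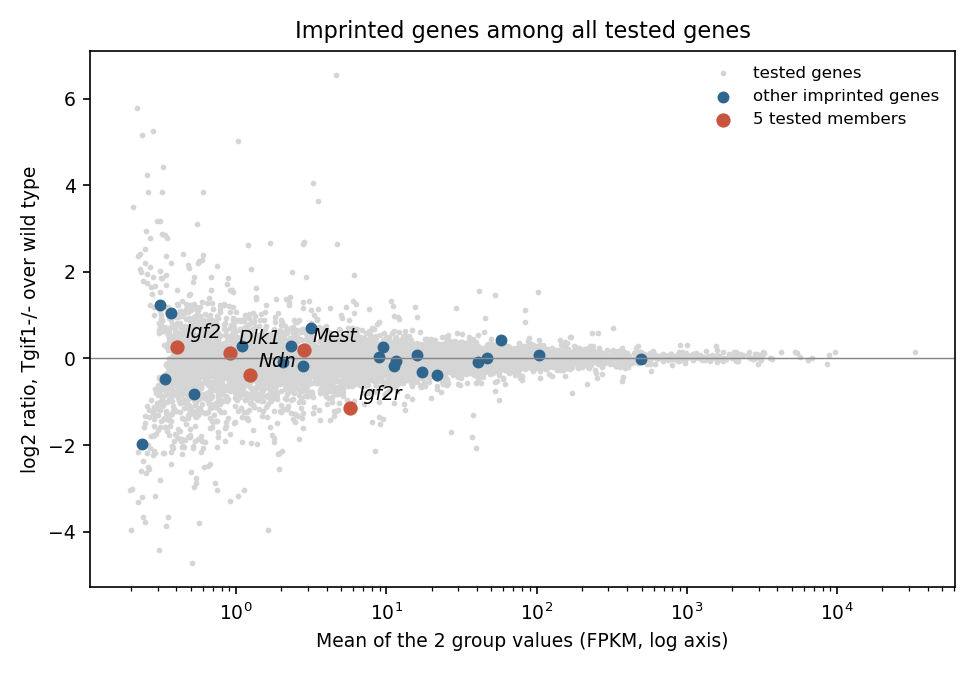
Each point is 1 tested gene with values above 0 in both groups, by mean FPKM (log axis) and log2 ratio of Tgif1-/- over wild type. The 5 tested genes described here are in red and the other 22 tested imprinted genes in blue. Igf2r (-1.15) lies at the lower edge of the grey cloud at its level, and most imprinted genes lie near 0.

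Igf2r and its neighbour Slc22a3 had ratios of opposite sign. Slc22a3, which is imprinted in placenta, had a log2 ratio of 0.42 (implied standard error 0.20), beside -1.15 for Igf2r. Neither gene was called, and the difference between them was not tested. Slc22a2, between them, was listed at 0 FPKM with the label Tgif1-/- and at 0.0164 FPKM in wild type.

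In the cluster of Igf2 and Kcnq1 on chromosome 7, all 8 tested genes differed by less than 1.5-fold. Cdkn1c encodes the cell cycle inhibitor p57, which is needed for quiescence of blood stem cells. It stood at 1.99 and 2.11 FPKM, a log2 ratio of -0.09 (implied standard error 0.46), with p = 0.850 in the authors' deposited table. Tssc4 was at 10.4 and 8.69 FPKM (p = 0.0786), the transporter gene Slc22a18 at 18.8 and 24.4 FPKM (p = 0.344) and the growth-restraining gene Phlda2 at 2.63 and 2.98 FPKM (in the authors' deposited table p = 0.750). Slc22a18 had the largest ratio between groups of the cluster's tested genes, with an implied standard error of 0.40 around a log2 ratio of -0.38.

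The cluster of Ndn and Snrpn, also on chromosome 7, held values in both directions. Snrpn had a log2 ratio of -1.97 and Ndn of -0.38, while Mkrn3, a ring finger gene at 0.441 and 0.186 FPKM, had a log2 ratio of 1.25 (in the authors' deposited table p = 0.0846). Peg12 was at 1.19 and 0.978 FPKM (in the authors' deposited table p = 0.554), and Atp10a, a lipid transporter gene, was at 16.5 and 15.6 FPKM. With the exception of Atp10a these tested genes were below 2 FPKM, with implied standard errors of 0.49 to 0.90. In the cluster of Dlk1, the neighbours Begain, Rtl1 and Dio3 had too few reads to be tested, and in that of Peg3 so did Zim1 and Usp29.

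**Figure D4:**
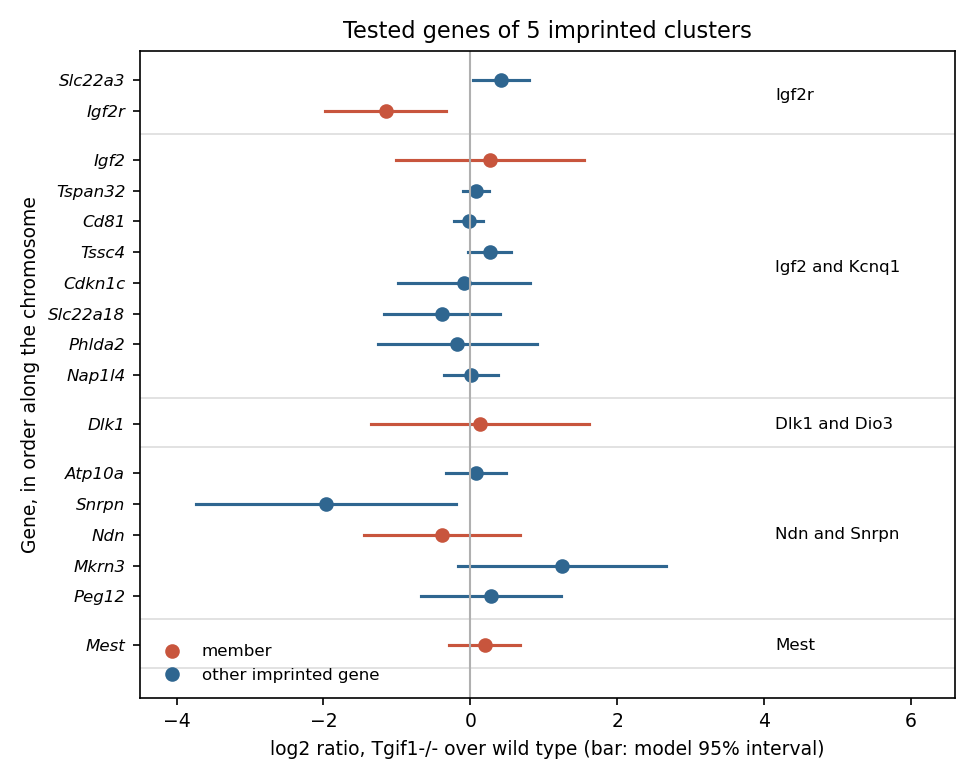
The log2 ratio of Tgif1-/- over wild type for tested genes of 5 imprinted clusters, in order along each chromosome, with bars for the 95% interval of the authors' model. Igf2r and Slc22a3 lie on opposite sides of 0, and the 8 genes of the Igf2 and Kcnq1 cluster lie between -0.38 and 0.27.

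The IGF and insulin pathway was described from a list of 33 genes, of which 20 were tested, with 0 called by Cuffdiff and 0 at an unadjusted p under 0.05. Of these, 7 were higher and 13 lower, with a median log2 ratio of -0.06 beside -0.03 over all tested genes. The other ligand, Igf1, was at 2.24 and 1.99 FPKM. Igf1r, the receptor that passes on the IGF2 signal, was at 27.6 and 26.4 FPKM, a log2 ratio of 0.06 (implied standard error 0.17). The insulin receptor gene Insr was at 22.9 and 26.1 FPKM (in the authors' deposited table p = 0.163).

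Igfbp4, which binds IGFs outside the cell, was at 134 and 144 FPKM, while Igfbp1, Igfbp2 and Igfbp3 were listed at 0 in both groups. Grb7, an adaptor related to Grb10, was at 0.605 and 0.131 FPKM (in the authors' deposited table p = 0.221). In the signalling arm below the receptors, Tsc2, a brake on mTOR, was at 13.3 and 16.5 FPKM (p = 0.0505), and Foxo3, a transcription factor held in check by insulin signalling and needed for stem cell maintenance, was at 79.3 and 84.1 FPKM (in the authors' deposited table p = 0.178). All 10 tested genes of this arm differed by less than 1.5-fold.

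Genes that set, keep or read imprints gave 18 tested genes, none called by Cuffdiff, with values lower for 14 and higher for 4, where 57.4% of all tested genes with values above 0 were lower. Their median log2 ratio was -0.05, beside -0.03 over all tested genes with values above 0. Of the 18, 17 differed by less than 1.5-fold. An unadjusted p under 0.05 was reached by 2 (11.1%, beside 5.41% of all tested genes), both lower, the methyltransferase gene Dnmt3b at a log2 ratio of -0.22 and the dioxygenase gene Tet3 at -0.27. With the implied errors raised to at least the median of tested genes at a like level (an error floor), the unadjusted p was 0.235 for Dnmt3b and 0.180 for Tet3, recomputed from the authors' deposited table. Dnmt1, which copies methylation at replication, was at 94.6 and 96.4 FPKM, and the insulator protein gene Ctcf, which binds the Igf2 and H19 control region, at 122 and 116 FPKM. Zfp57, which protects imprints from loss of methylation, was at 2.25 and 3.31 FPKM (in the authors' deposited table p = 0.212). Dnmt3l was at 0.0516 and 0.653 FPKM (in the authors' deposited table p = 0.201), with an implied standard error of 2.86 on the log2 scale. Trim28, the partner of ZFP57, was at 558 and 675 FPKM with a failed test.

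Defining markers of the labelled cell type were present: Kit was at 193 and 202 FPKM (failed test) and Ly6a, the Sca-1 gene, at 120 and 88.9 FPKM (in the authors' deposited table p = 0.0536). Of 10 tested stem cell markers Cuffdiff called 0, and 0 had an unadjusted p under 0.05. After Ly6a, the smallest p belonged to Procr at 7.32 and 8.82 FPKM, Mecom at 33.5 and 34.9 FPKM and the cell cycle inhibitor gene Cdkn1b at 14.3 and 12.5 FPKM.

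Markers of other cells differed between the groups beside the Igf2r values. The marker lists were chosen with earlier results of these data known. A high share called in them may follow from that choice and is described only. The B cell list held 8 tested genes, with summed levels of 59.4 and 122 FPKM over 10 markers. Of the 8, 4 were called lower, beside 0.373% of all tested genes. These were Igll1, part of the surrogate light chain, at 12.7 and 40.9 FPKM, Ebf1, a B lineage transcription factor, at 3.13 and 13.7, Blnk at 4.24 and 11.8, and the antigen receptor subunit gene Cd79a at 5.16 and 13.7 FPKM. By direction 7 of the 8 were lower, and Cd79b, the remaining 1, was at 27.8 and 27.6 FPKM. The mast cell and basophil list held 8 tested genes, with summed levels of 457 and 212 FPKM over 10 markers. Of the 8, 4 were called higher, beside 0.289% of all tested genes. The called genes were the proteases Prss34 at 151 and 51.8 FPKM, Mcpt8 at 77.2 and 28.0, and Cpa3 at 115 and 52.4 FPKM, with the IgE receptor subunit gene Ms4a2 at 15.4 and 6.12 FPKM.

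All 10 neutrophil and monocyte markers had the lower value with the label Tgif1-/-. Of 7 tested, 0 were called and 4 were lower at an unadjusted p under 0.05, beside 3.55% of all tested genes. The median log2 ratio of the 7 was -0.95. These 4 were Ltf at a log2 ratio of -1.91, Ngp at -1.24, the calprotectin subunit gene S100a8 at -0.95 and Ly6g at -2.56. The summed level, 3412 and 3787 FPKM, was mostly that of Mpo, at 3055 and 3289 FPKM with a failed test. Of 10 tested erythroid and megakaryocyte markers, with a median log2 ratio of 0.56, 0 were called. At an unadjusted p under 0.05, 3 were higher, beside 1.85% of all tested genes. These were Itga2b, the integrin of platelets, at 54.0 and 35.2 FPKM, the platelet chemokine gene Pf4 at 108 and 59.7, and the carbonic anhydrase gene Car1 at 281 and 187 FPKM. The summed level was 866 and 658 FPKM.

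Among multipotent progenitor markers, with summed levels of 2206 and 2363 FPKM, 0 of 6 tested were called. At an unadjusted p under 0.05, 2 were lower, beside 3.55% of all tested genes. These were the lymphoid genes Dntt at 302 and 437 FPKM and Il7r at 8.84 and 13.6 FPKM, followed by p by Mki67 at 84.2 and 96.2 and Cdk6 at 383 and 351 FPKM.

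Several imprinted genes are known for expression in stromal cells. Of 17 stromal and endothelial markers 6 were tested, 3 higher and 3 lower, with a median log2 ratio of 0.0004. Of the 6, 0 were called and 2 were lower at an unadjusted p under 0.05, beside 3.55% of all tested genes. The matrix gene Bgn was at 5.93 and 11.9 FPKM, a log2 ratio of -1.01 (implied standard error 0.30), with p = 0.000893 and q = 0.0987 in the authors' deposited table. The fibronectin gene Fn1 was at 0.467 and 1.07 FPKM, a log2 ratio of -1.20 (implied standard error 0.36), with p = 0.000790 and q = 0.0912 in the authors' deposited table. With the error floor, the unadjusted p recomputed from the authors' deposited table was 0.0335 for Fn1 and stayed at 0.000893 for Bgn. The next smallest p belonged to Sparc at 2.40 and 1.73 FPKM and Vcam1 at 2.29 and 1.78 FPKM, both with the higher value in the group labelled Tgif1-/-. The summed level, 106 and 101 FPKM, came mostly from Pecam1 at 54.3 and 44.9 and Pdgfrb at 18.2 and 15.9 FPKM, both with failed tests. Too few reads for a test were found for 9 of the 17 markers, among them Col1a1 at 0.0153 and 0.0271 FPKM, Pdgfra at 0.0289 and 0.0209, Col3a1 at 0.0104 and 0, and Lum, listed at 0 in both groups. The part of any of these cells in the Igf2r values was not tested.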

How the data were processed

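About 200 ng of RNA per the labels' protocols was sequenced in 6 samples, 3 per group. The submitters' processing notes name TopHat and Cuffdiff, without versions. FPKM values, 1 per group, were computed by the authors, as were each gene's p-value, its q-value, the test statistic and the log2 fold change, per the file headers. The deposited fold change has wild type on top and was turned round. No replicate values are in the table, so nothing was fitted anew. The status marks 10730 genes as tested, 3143 as failed and 8455 as having too few reads. Failed genes have a deposited p of 1 and a fold change of 0, so their ratios were computed from the FPKM values.

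For all 10683 tested genes with values above 0 in both groups, the deposited p-value equals the normal two-sided value of the statistic within 0.001, and q equals a Benjamini-Hochberg adjustment over tested genes. The build in the processing notes is hg19, which is human. The identifiers are mouse, and of 20781 found in GENCODE M21, 252 had the same start, so positions are of another mouse build, not given in the sources used here. They were counted from 0 at the start and are printed from 1. Tssc4, Tsc2, Dnmt3l, Mecom, Cdk6, Fn1 and Col1a1 each share their positions with another line, so the division of reads is uncertain there too. RefSeq sequences (GRCm38.p6) were matched by symbol.

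The genes and lists were chosen with earlier results of these data known. Named genes were the 8 matched ones, in other lists the called genes and the 4 tested genes with the smallest p, among other imprinted genes also those with the highest levels, and genes of a cluster. One marker gene that this rule names is not reported here. Some pathway genes and cell type markers with a defining role (Igf1, Igf1r, Igfbp genes, Dnmt1, Ctcf, Trim28, Kit, Mpo, Cd79b, Pecam1, Pdgfrb, Col1a1, Pdgfra, Col3a1, Lum) were chosen after their values were seen. Alternatives were other thresholds, minimum levels, a minimum fold, centring, pseudocounts, and an error floor (the median implied error of tested genes in the same of 20 expression bins). The error floor and the adjustment were tested on simulated data. Python 3.11.15, pandas 2.3.3, numpy 2.4.6 and scipy 1.17.1 were used.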

Additional observations from a re-analysis of the deposited data

How the results depend on the processing

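No gene of the 8 and no other tested imprinted gene was called at q at or under 0.01 or 0.1, over genes reaching 1 or 5 FPKM in a group, with a minimum of 1.5-fold, with the error floor or with centring. At an unadjusted p under 0.05, 1 of the 5 tested genes among the 8 passed. So did 3 of the 22 other imprinted genes tested, beside 5.41% of all tested genes. The adjusted p of Igf2r ran from 0.347 over genes reaching 1 FPKM in a group to 0.932 with the error floor, which left its own error as it was and changed those of other genes. Its log2 ratio was -0.96 with a pseudocount of 1 FPKM. The median log2 ratio of the 8 genes was 0.05, 0.02 and 0.12 with pseudocounts of 0.1 and 1 FPKM and with centring, and -0.16 over genes reaching 1 FPKM in a group. That of the 37 other imprinted genes with values above 0 in both groups was -0.03, and 0.01 with centring. Over all 10730 tested genes 71 were called, and 39 at q at or under 0.01. Called were 46 over genes reaching 5 FPKM, 41 with at least 1.5-fold and 21 with the error floor. An unadjusted p under 0.05 was reached by 580 of the 10730 (5.41%). No paired analysis was possible because the groups share no replicate numbers and the table holds no values of single samples. For the same reason no sample could be left out in turn. With the implied errors, Mest would have needed 1.85-fold, Igf2 5.11-fold and Dlk1 6.59-fold to be called, and smaller differences would not have been called.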

Other observations

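Of the 48 other imprinted genes matched, 9 were listed at 0 FPKM in both groups: Calcr, Dcn, Kcnk9, Klf14, Zim1, Dio3, Magel2, Rasgrf1 and Usp29. Several of these are known for expression in brain, placenta or connective tissue. Dcn, the small proteoglycan decorin of connective tissue, was at 0, as were the brain-expressed genes Magel2 and Kcnk9. The growth-restraining transcription factor gene Plagl1, known as a regulator of other imprinted genes, stood at 0.375 and 0.668 FPKM with an implied standard error of 1.68 on the log2 scale (p = 0.621 in the authors' Cuffdiff test). Peg10, a gene derived from a retrotransposon, stood at 0.280 and 0.392 FPKM, and the brain gene Nnat at 2.52 and 2.08 FPKM.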
